A study of Mus musculus with 2 samples.

Results

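The genes described here encode the protein folding machinery of the endoplasmic reticulum (ER) and the sensors of the unfolded protein response. They were chosen by name: 32 genes, each found through probe sets that the platform annotation assigns to that 1 gene. All 32 had a named probe set, 80 in total, out of 18193 genes with a named probe set and 45037 probe sets on the array. A further 1 probe set that names a member together with another gene was left out. Expression was compared between 2 cultures of CD4 T cells from the spleens of wild type C57BL/6 mice, with 1 Affymetrix array each. Both cultures received antibodies against the T cell receptor and CD28 for 2 days and were harvested after 3 more days. The CD103+ Th1 medium held 3 ng/ml of IL-4, 10 ng/ml of IFN-γ and 3 ng/ml of TGF-β. The Th1 medium held 1 ng/ml of IL-12, with IL-4 blocked by 1 µg/ml of a monoclonal antibody. The magnetically sorted cells were above 98% pure, and the labels do not give the age or number of the mice.

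With 1 array per culture, nothing below could be set against a spread between replicates, and nothing was tested. Signals are linear intensities in arbitrary units, taken from each gene's brightest probe set, by the mean of both arrays on the log2 scale. A fold compares both arrays on 1 probe set, log2 ratios are CD103+ Th1 over Th1, and levels of different genes are not set against each other. A floor was set at the median signal of both arrays, 78.5. The array medians were 78.0 in CD103+ Th1 against 78.8 in Th1. In the check of the labelled cell type, all 7 T cell markers with a named probe set were above the floor, and Cd4 had signals of 1081 and 973. Markers of other cells differed between the arrays. Both CD8 genes exceeded 2-fold in favour of CD103+ Th1 and summed to 3647 against 1163. Of 6 named B cell markers 3 were measured, 2 of them past 2-fold in that direction, with sums of 8055 and 2604 after the floor that came nearly all from Ighm, whose 4 measured probe sets ran from -0.53 to 1.84 on the log2 scale. Of 8 myeloid markers 4 were measured, 1 past 2-fold in each direction. Of 4 NK cell markers 2 were measured, 1 of them past 2-fold higher in CD103+ Th1 and the other 1.87-fold lower. These 2 summed to 8566 in CD103+ Th1 against 10205 in Th1. The part of such cells in the ratios below was not tested, and in cultures measured whole, fewer cells of a type and less RNA per cell cannot be told apart.

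Proteins bound for the cell surface or for secretion, among them cytokines and integrins, enter the ER through the Sec61 channel, fold there with chaperones and disulfide isomerases, and are returned to the cytosol for degradation when folding fails. Unfolded protein is sensed by 3 membrane proteins, IRE1, PERK and ATF6. IRE1 splices the mRNA of Xbp1 into its active form, PERK phosphorylates the translation factor eIF2α, and ATF6 is cleaved in the Golgi to release a transcription factor. Activated T cells enlarge this machinery as they begin to make cytokines. Splicing of Xbp1, phosphorylation of PERK targets and cleavage of ATF6 are not visible in mRNA signals of this kind.

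Several of these genes are known to carry the ER stress response element (ERSE) in their promoters, in which the CCAAT box binds the factor NF-Y and the CCACG end binds ATF6 or XBP1. RefSeq promoter windows of the mouse GRCm38.p6 build, 250 bases before to 50 after the start site, were available for 27 of the 32 genes. They were searched on both strands for CCAAT followed by any 9 bases and CCACG, with no mismatch allowed. The pattern was found in 9 of the 27 genes, 33.3%, against 37 of 27025 genes with a window in all, 0.137%. The 10 elements of the 9 genes lay between 26 and 212 bases upstream of the start, 6 in the direction of the gene and 4 opposite to it. The elements are shown because they are a sequence feature that 9 of the members share. The genes were chosen by name and several are known to carry the element, so this share is not independent of the choice. Each is read from the CCAAT box, and capitals mark the fixed ends on either side of the 9-base spacer.
Hspa5, chr2:34772025-34772043, plus strand: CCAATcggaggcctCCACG
Calr, chr8:84847075-84847093, plus strand: CCAATgagggtcgaCCACG
Derl3, chr10:75893242-75893260, minus strand: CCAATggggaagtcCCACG
Hsp90b1, chr10:86705638-86705656, minus strand: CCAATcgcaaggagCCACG
Hsp90b1, chr10:86705533-86705551, plus strand: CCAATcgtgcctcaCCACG
Canx, chr11:50325800-50325818, minus strand: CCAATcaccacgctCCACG
Pdia6, chr12:17266491-17266509, plus strand: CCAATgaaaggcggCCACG
Dnajc3, chr14:118937827-118937845, plus strand: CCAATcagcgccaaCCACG
Creld2, chr15:88819520-88819538, minus strand: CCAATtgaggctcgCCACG
Syvn1, chr19:6046532-6046550, plus strand: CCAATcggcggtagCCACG

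Entire upstream windows are shown for 3 genes that hold the element and differed in expression ratio: Hspa5, close to 0, Hsp90b1, lower in CD103+ Th1, and Syvn1, higher in CD103+ Th1. They give the 250 bases before the start site in the direction of the gene, with the elements in capitals; the element nearer the start in Hsp90b1 runs opposite to the gene.
Hspa5, chr2:34771840-34772089, plus strand: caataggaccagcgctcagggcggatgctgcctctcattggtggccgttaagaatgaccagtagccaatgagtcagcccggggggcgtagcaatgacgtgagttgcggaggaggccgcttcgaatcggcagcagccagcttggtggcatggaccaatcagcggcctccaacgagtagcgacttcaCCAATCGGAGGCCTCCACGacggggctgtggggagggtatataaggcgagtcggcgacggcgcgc
Hsp90b1, chr10:86705445-86705694, minus strand: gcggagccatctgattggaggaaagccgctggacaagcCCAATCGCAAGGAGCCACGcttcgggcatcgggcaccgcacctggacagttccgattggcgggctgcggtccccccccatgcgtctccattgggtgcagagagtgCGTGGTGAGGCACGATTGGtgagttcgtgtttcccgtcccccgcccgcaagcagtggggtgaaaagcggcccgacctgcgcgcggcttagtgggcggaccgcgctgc
Syvn1, chr19:6046326-6046575, plus strand: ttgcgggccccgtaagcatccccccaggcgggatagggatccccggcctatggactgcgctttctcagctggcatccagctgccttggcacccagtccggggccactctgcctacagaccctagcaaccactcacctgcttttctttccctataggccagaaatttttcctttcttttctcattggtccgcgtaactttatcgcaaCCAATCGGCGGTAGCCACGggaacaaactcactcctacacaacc

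The shorter variant ERSE-II, which is ATTGG, any 1 base and CCACG, was found in 2 of the 27 genes, Herpud1 and Dnajb11, against 0.0444% of all genes with a window. The XBP1 site TGACGTGG was found in 0 of the 27, and 0.714% of all genes held it. The ATF4 site TGATGNAA was found in 1 of the 27, Herpud1, against 4.51% of all genes. Each motif was matched separately over the same windows on both strands, and no match in the members overlapped one of another motif. These matches describe letters in a fixed window and say nothing of binding in these cells.

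None of the 32 genes differed by 2-fold between the cultures. The counts were 0 higher and 0 lower, while 9.91% of the 11194 measured genes, those above the floor on 1 array or both, differed by 2-fold in either direction. By direction these were 5.04% higher and 4.87% lower. Among the 8114 genes with at least 4 times the floor on the brighter array, where 30 of the 32 belong, 10.4% differed by 2-fold, 5.5% higher and 4.89% lower. Ratios lay between a log2 value of -0.78 for Atf6 and 0.73 for Dnajb9. The median was 0.01 and the quartiles were -0.27 and 0.21, beside a median of -0.03 and quartiles of -0.35 and 0.30 over all measured genes. Exactly 16 genes had a ratio above 0 and 16 below 0. At the lower threshold of 1.5-fold, 5 members were higher in CD103+ Th1 (Dnajb9, Pdia3, Hyou1, Syvn1 and Derl3) and 1 was lower (Atf6), beside 25.8% of all measured genes in either direction. These are 15.6% and 3.13% of the members, beside 12.4% and 13.4% of all measured genes in the same directions. The higher share is near the background, and the lower share is below it by an amount that was not tested.

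**Figure D1:**
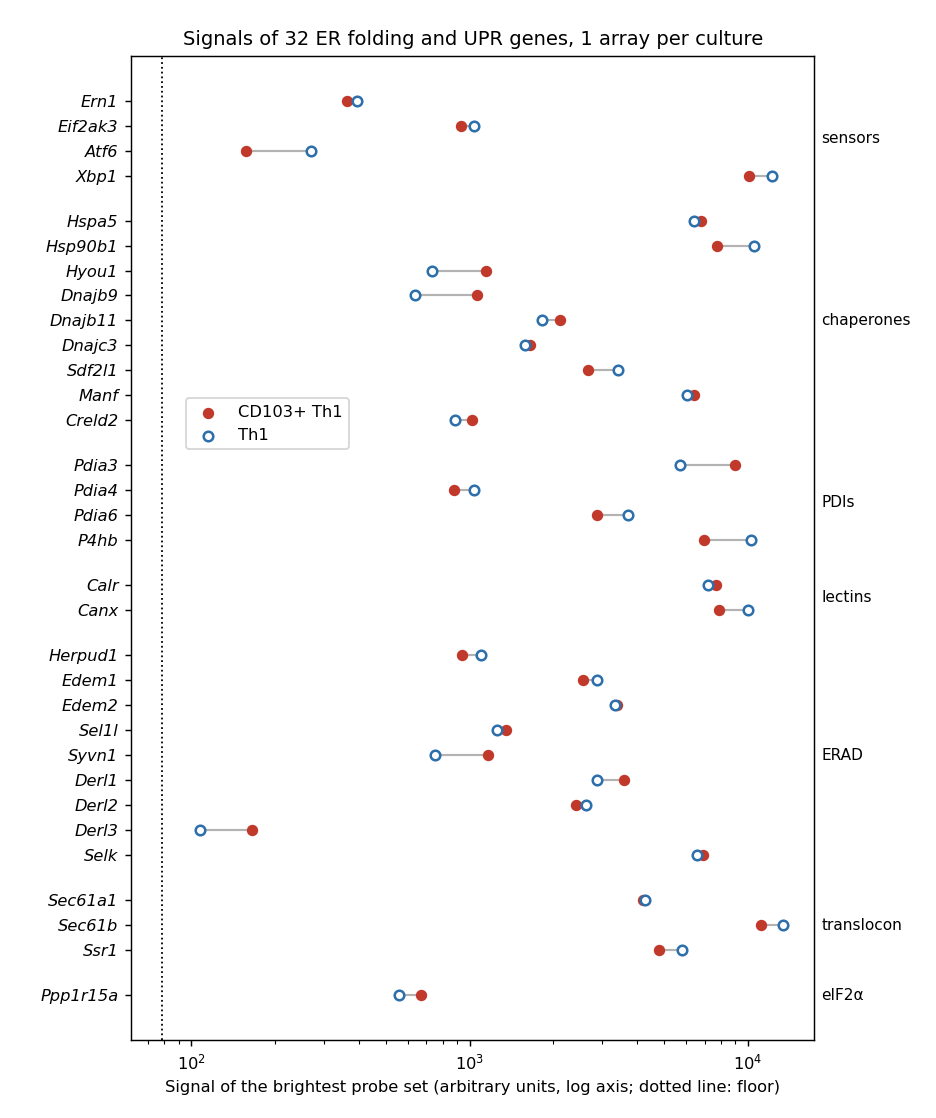
Signals of the brightest probe set of each of the 32 genes on a log axis in arbitrary units, grouped by role, with CD103+ Th1 as filled and Th1 as open points and the floor of 78.5 as a dotted line. All signals lie above the floor, from 107 to 13432, and the points of a gene are close together in nearly every row; Atf6, Dnajb9 and Pdia3 show the widest gaps.

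**Figure D2:**
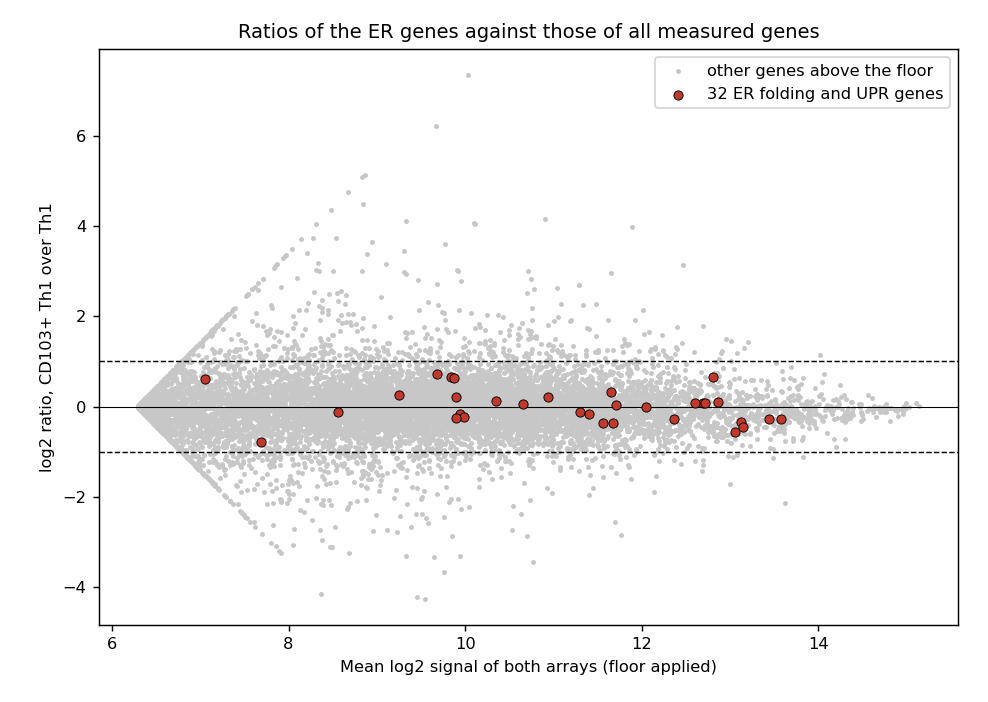
Log2 ratio, CD103+ Th1 over Th1, against the mean log2 signal of both arrays for all 11194 measured genes, with the 32 ER genes as red points and 2-fold marked by dashed lines. All 32 lie between the dashed lines, over nearly the whole range of signal; values under the floor were set to the floor, which gives the slanted edges at left.

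The genes of the stress sensors had lower signals in CD103+ Th1 by small amounts, apart from Atf6. Ern1, which encodes IRE1, had a signal of 364 in CD103+ Th1 against 393 in Th1, a log2 ratio of -0.11. Its 2 dimmer measured probe sets gave -0.21 and -0.44. Eif2ak3, which encodes PERK, had 930 and 1035, a ratio of -0.15 on its 1 measured probe set. For both kinases the signals of the arrays were within 1.5-fold of each other.

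Atf6 had 157 in CD103+ Th1 against 269 in Th1, 1.71-fold lower, the largest difference among the 32 genes. Its other measured probe set, with 167 and 214, gave a log2 ratio of -0.36, so the size of the difference depends on the probe set while the direction does not. Both probe sets lie under 4 times the floor. Xbp1, the transcription factor downstream of IRE1, had 10128 and 12282, 1.21-fold lower. Its 3 other probe sets had ratios of -0.13, -0.28 and 0.08, the last on the dimmest, so the Xbp1 transcripts as a whole differed little between the arrays. The probe sets do not separate spliced from unspliced Xbp1. All 4 genes of this group had a ratio below 0 on the brightest probe set, with a median of -0.22.

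The chaperones of the ER lumen divided. Hspa5, which encodes BiP, the main Hsp70 chaperone of the ER and the textbook marker of the unfolded protein response, had 6805 in CD103+ Th1 against 6440 in Th1, a log2 ratio of 0.08. Its other probe sets gave 0.20 and 0.25. All 3 were thus slightly higher in CD103+ Th1 and all differed by less than 1.5-fold. Hsp90b1, which encodes the ER Hsp90 GRP94, a chaperone that integrins and Toll-like receptors need to fold, went the other way. It had 7792 and 10580, 1.36-fold lower, and a dimmer probe set with 3401 and 5709 gave a ratio of -0.75. The 2 chaperones therefore had ratios of opposite sign on every measured probe set, 3 for Hspa5 and 2 for Hsp90b1.

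The 3 J proteins, which hand clients to BiP, had ratios above 0 on every measured probe set. Dnajb9, a J protein that restrains IRE1 and is among the best known XBP1 targets, had 1060 in CD103+ Th1 against 638 in Th1, 1.66-fold higher on its 1 probe set. Dnajc3, a J protein also known as an inhibitor of PERK, had 5 measured probe sets, all higher in CD103+ Th1. The brightest by mean log2 signal had 1650 and 1577, a log2 ratio of 0.07. The next, with 2026 and 1258, gave 0.69, others gave 0.45 and 0.84, and the dimmest, with 276 and 85.7, gave 1.69. That dimmest value was the only one of the 71 measured probe sets of the members past 2-fold, and its Th1 signal was close to the floor. The rule of the brightest probe set therefore gives Dnajc3 the smallest of its values, and the mean of all 5 was 0.75. Dnajb11, a J protein that binds unfolded clients of BiP, had 2107 and 1828, a ratio of 0.21.

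Hyou1, which encodes an Hsp110-like exchange factor of BiP, had 1150 in CD103+ Th1 against 733 in Th1, 1.57-fold higher on a probe set of the shared kind, whose probes match several transcripts. A second probe set without such a mark had 221 and 249, a log2 ratio of -0.17. The direction for Hyou1 is thus not settled by these arrays. Sdf2l1, an ER protein that works with J proteins and BiP, had 2673 and 3410, 1.28-fold lower. Manf, a secreted ER stress protein, had 6403 and 6076, a ratio of 0.08, and Creld2, another ER stress-inducible lumenal protein, had 1022 and 885, a ratio of 0.21. Of the 9 chaperones and co-chaperones 7 had a ratio above 0 and 2 below 0, with a median of 0.08.

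The disulfide isomerases also divided, with Pdia3 alone higher in CD103+ Th1. Pdia3 encodes ERp57, the isomerase that works with calnexin and calreticulin and in the loading of MHC class I. It had 9018 in CD103+ Th1 against 5716 in Th1, 1.58-fold higher, and a dim second probe set, under the floor in Th1, gave a bound of 0.18 on the log2 scale. P4hb, which encodes protein disulfide isomerase itself, had 6991 and 10290, 1.47-fold lower on its 1 probe set. Pdia6 had 2870 and 3703, 1.29-fold lower, and Pdia4 had 878 and 1041, 1.19-fold lower, each on 1 measured probe set. The log2 ratios of Pdia3, 0.66, and P4hb, -0.56, mark the ends of this role.

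The lectin chaperones, which hold glycoproteins while they fold, differed in sign. Calr, for calreticulin, had 7718 in CD103+ Th1 against 7176 in Th1, a log2 ratio of 0.11, with other probe sets at 0.10 and 0.21. Canx, for calnexin, had 7888 and 10022, 1.27-fold lower, with others at -0.60 and -0.18. All 3 Calr probe sets were above 0 and all 3 Canx probe sets below 0, and all but 1 of the 6 were within 1.5-fold.

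**Figure D3:**
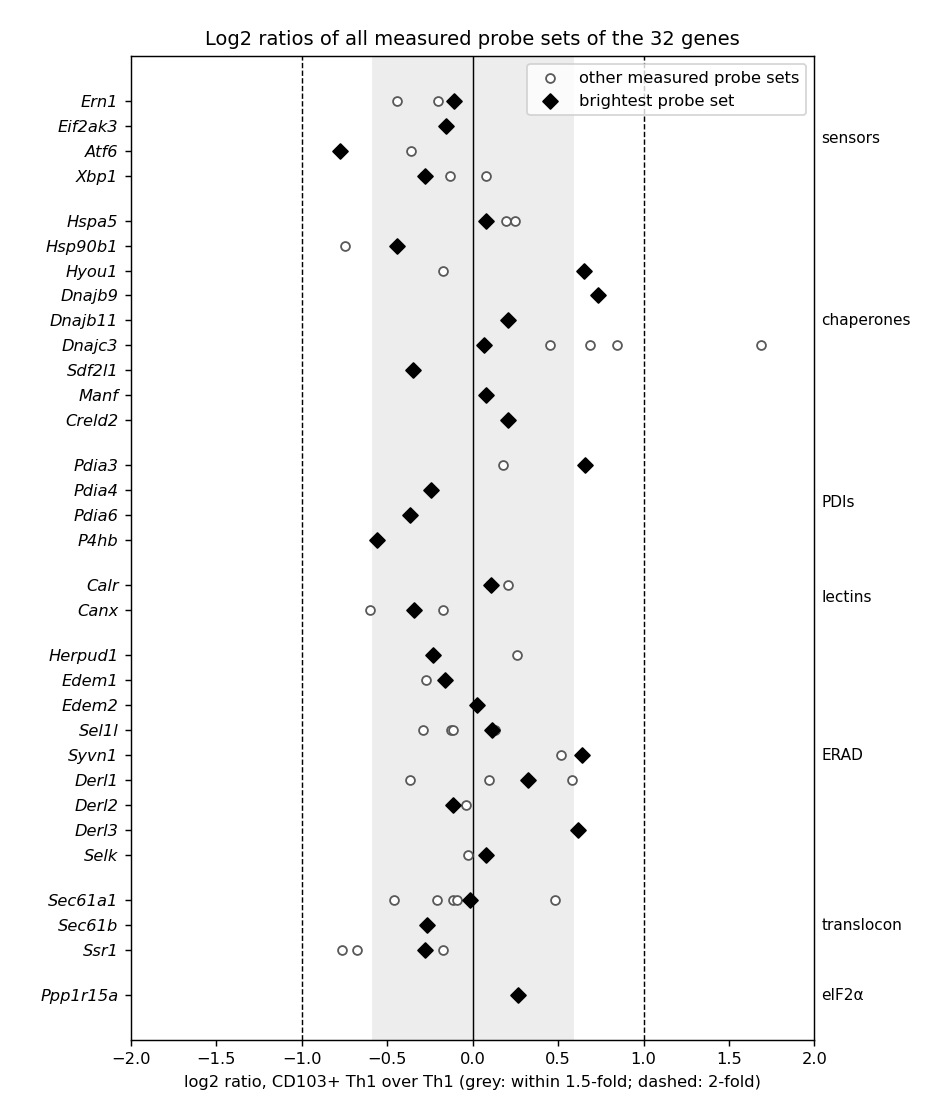
Log2 ratio, CD103+ Th1 over Th1, of all 71 measured probe sets of the 32 genes, with the brightest probe set of a gene as a black diamond and the others as open circles. The grey band is within 1.5-fold and the dashed lines mark 2-fold; 1 Dnajc3 probe set, at 1.69, lies past them, and Hyou1, Derl1, Sec61a1, Sel1l, Herpud1, Xbp1 and Selk have points on either side of 0.

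Genes of ER-associated degradation had small ratios in both directions, with Syvn1 and Derl3 highest. Syvn1 encodes HRD1, the ubiquitin ligase at the core of this pathway, and had 1169 in CD103+ Th1 against 751 in Th1, 1.56-fold higher. That probe set is of the shared kind, and the other, without such a mark, had 694 and 485, a log2 ratio of 0.52. Sel1l, the partner that stabilises HRD1, had 1355 and 1252, a ratio of 0.11, and its 5 measured probe sets ran from -0.29 to 0.13. The ligase was thus higher on both of its probe sets, while the signals of its partner pointed both ways.

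The derlins, membrane proteins of the same export channel, were not alike. Derl1 had 3584 in CD103+ Th1 against 2868 in Th1, a log2 ratio of 0.32, but its 4 probe sets ran from -0.37 to 0.58. Derl2 had 2422 and 2623, a ratio of -0.11, with -0.04 on its other probe set. Derl3 had 165 and 107, 1.53-fold higher on its 1 probe set, at signals close to the floor. Derl3 is abundant in plasma cells, and of 5 plasma cell markers 3 were measured, with signals that summed to 272 in CD103+ Th1 against 343 in Th1 after the floor. In CD103+ Th1 that sum counts the floor of 78.5 in place of marker signals of 17.6 and 41.7. The part of plasma cells in the Derl3 ratio was not tested.

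The remaining degradation genes differed little. Herpud1, which recruits the HRD1 complex, had 937 in CD103+ Th1 against 1102 in Th1, a log2 ratio of -0.23, against 0.26 on its other probe set. Edem1, which marks misfolded glycoproteins for disposal, had 2558 and 2864, a ratio of -0.16, with -0.27 on the other probe set. Edem2, its relative, had 3385 and 3324, a ratio of 0.03. Selk, now named Selenok, a selenoprotein of the ER membrane, had 6924 and 6553, a ratio of 0.08. In all, 6 of the 9 genes of this role had a ratio above 0 and 3 below 0, with a median of 0.08.

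The genes of the translocon were near 0 or slightly lower in CD103+ Th1. Sec61a1, the channel subunit, had 4222 in CD103+ Th1 against 4263 in Th1, a log2 ratio of -0.01 that turned above 0 when the arrays were scaled to equal medians or quantiles, and its 6 probe sets ran from -0.46 to 0.48. Sec61b, the β subunit, had 11140 and 13432, 1.21-fold lower on its 1 probe set. Ssr1, a subunit of the translocon-associated complex, had 4783 and 5797, a ratio of -0.28, and its other probe sets gave -0.17, -0.68 and -0.77. Ssr1 was below 0 on all 4 of its probe sets. Its bright one was within 1.5-fold and 2 of the dimmer ones were past it. Ppp1r15a, which encodes GADD34, the subunit that directs a phosphatase to eIF2α and so ends the PERK signal, had 669 and 556, a ratio of 0.27 on its 1 probe set.

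Agreement between probe sets limits what these ratios show. The brightest probe sets of Xbp1, Hyou1, Canx, Syvn1, Derl1 and Selk were of the shared kind, whose probes match several transcripts. Of the 32 genes, 13 had 1 measured probe set and 19 had several. Among the 19, 7 had probe sets on either side of 0 and 12 had all of them on 1 side. The gap between the highest and lowest ratio of a gene had a median of 0.42 on the log2 scale, more than the median size of the members' own ratios, 0.26, beside a median size of 0.32 over all measured genes. Genes with every measured probe set on 1 side were Hspa5, Calr, Dnajc3, Pdia3 and Syvn1 above 0 and Hsp90b1, Canx, Atf6, Ern1, Edem1, Derl2 and Ssr1 below 0.

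Ratios of both signs were found whichever factor is known to drive the genes, and with or without the element in the promoter. Of 8 genes commonly listed as XBP1 targets (Dnajb9, Edem1, Dnajc3, Dnajb11, Sec61a1, Sec61b, Ssr1 and Derl2) 3 had a ratio above 0 and 5 below 0, with a median of -0.06. Of 10 commonly listed as ATF6 targets (Hspa5, Hsp90b1, Pdia4, Herpud1, Sel1l, Hyou1, Calr, Creld2, Manf and Sdf2l1) 6 were above 0 and 4 below 0, with a median of 0.08. The 9 genes with the ERSE letters had 6 ratios above 0 and 3 below 0, from -0.44 for Hsp90b1, which holds 2 elements, to 0.64 for Syvn1. The 18 genes without them had 7 above 0 and 11 below 0, from -0.56 for P4hb to 0.73 for Dnajb9. The medians were 0.08 and -0.13, and both ranges cover 0. The difference between these sets was not tested.

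**Figure D4:**
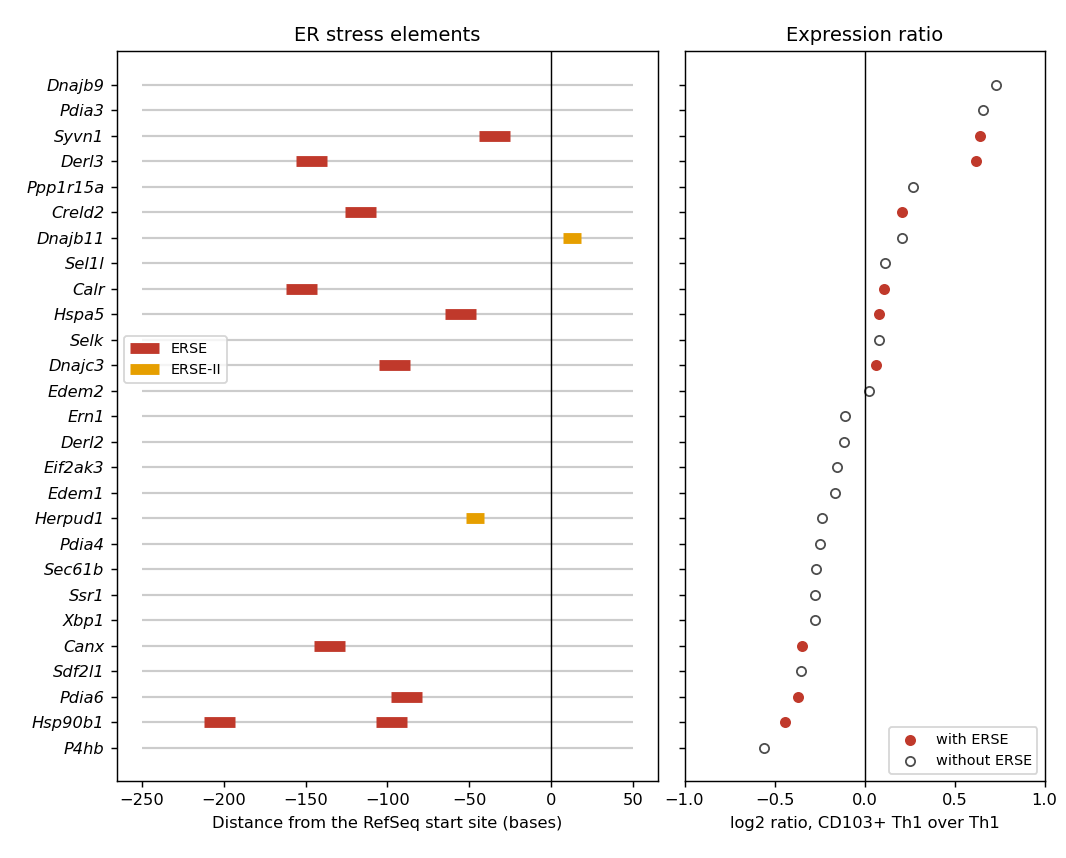
Left, positions of the ERSE (red) and ERSE-II (orange) letters in bases from the RefSeq start site for the 27 genes with a promoter window, which spans 250 bases before to 50 after the start. Right, the log2 ratio of the same gene, CD103+ Th1 over Th1, with filled points for the 9 genes that hold the ERSE; these lie on both sides of 0, from Hsp90b1 at -0.44 to Syvn1 at 0.64, and genes without it lie beyond them at either end.

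Neighbouring pathways were described with the same arrays. The PERK and ATF4 arm contained larger differences than any of the 32 genes. Asns, asparagine synthetase, had 453 in CD103+ Th1 against 2180 in Th1, a log2 ratio of -2.27, and Eif4ebp1, which encodes an inhibitor of translation, had 2351 and 5740, a ratio of -1.29. The factors themselves were closer to 0. Atf4 had 3305 and 4508, a ratio of -0.45, and Ddit3, which encodes CHOP, had 1154 and 1066, a ratio of 0.12. Of 11 measured genes of this arm 5 had a ratio above 0 and 6 below 0, beside 52.6% of all measured genes below 0. The median was -0.12. At least 2-fold lower were 2 and higher 0, beside 4.87% and 5.04% of all measured genes. The lower count was 1 when probe sets were averaged and 3 with the floor at the 25th percentile. Eif4ebp1 probe sets ran from -1.29 to -0.29.

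Oxidative folding genes outside the list mostly had ratios below 0. Of 22 measured genes 18 had a ratio below 0, beside 52.6% of all measured genes, and 5 reached 1.5-fold lower, beside 13.4%. The median was -0.19. The count at 1.5-fold lower was 2 of 16 with the floor at the 75th percentile and 3 of 16 with only genes at 4 times the floor. In both cases 13 of the 16 had a ratio below 0. Dnajc10, which encodes the reductase ERdj5, had 1437 and 2980, 2.07-fold lower. Fkbp11, a proline isomerase, was at least 1.87-fold lower, under the floor in CD103+ Th1. Ero1a, the oxidase that recharges P4hb and named after its values were seen, had 9664 and 16334, a log2 ratio of -0.76. The direction of Dnajc10 and Ero1a is that of P4hb, Pdia4 and Pdia6 and not of Pdia3.

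The other ER lists had medians between -0.27 and 0.16. Their counts on each side of 0 stand beside 52.6% of all measured genes below 0. Among 11 oligosaccharyltransferase genes, which attach glycans, 9 were below 0, with a median of -0.27, Rpn1 at -0.54 and Dad1 at -0.46. After quantile normalization 7 of the 11 were below 0, with a median of -0.17. Of 19 measured genes for the signal recognition particle, signal peptidase and translocation 12 were below 0, with a median of -0.08, Srp72 at -0.91 and Srp9 at -0.46. With array medians set equal 10 of the 19 were below 0. The 15 other degradation genes had 11 ratios above 0 and a median of 0.16, with Rnf139 2.26-fold higher (2490 against 1101) and Selenos at -0.52. Rnf139 encodes an ER-resident ubiquitin ligase.

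In glycan trimming 6 of 9 measured genes were above 0, with a median of 0.12, Edem3 at 0.41 and Lman1, a cargo receptor, at -0.60, with Lman1 probe sets from -0.92 to 0.09. In ER exit and retrieval 11 of 17 were below 0, beside 52.6% of all measured genes, with a median of -0.08. The retrieval receptor gene Kdelr3 was at least 2.16-fold lower, under the floor in CD103+ Th1, and the coat gene Sec24a had a ratio of 0.40. Among 10 other sensors, proteases and factors 5 were above 0 and 5 below 0. Mbtps1, the Golgi protease that makes the first cut in ATF6, had 2835 and 1394, 2.03-fold higher, with its 3 probe sets from 0.29 to 1.02. Tmbim6, an ER membrane protein that restrains IRE1, had a ratio of 0.54. Atf6 and the protease gene Mbtps1 thus had ratios of opposite sign.

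Over the 7 lists other than the PERK and ATF4 arm and the heat shock genes outside the ER, 103 genes were measured. Of these 41 had a ratio above 0 and 62 below 0, beside 52.6% of all measured genes below 0. At 2-fold 2 were higher and 2 lower, beside the 0 and 0 of the 32 genes and 5.04% and 4.87% of all measured genes. At 1.5-fold 2 were higher and 8 lower, beside 5 and 1 of the 32 genes and 12.4% and 13.4% of all measured genes. Chaperone genes outside the ER mostly had ratios below 0. Of 14 measured heat shock genes of the cytosol and mitochondria 13 had a ratio below 0 (12 after quantile normalization) and 6 reached 1.5-fold lower, beside 52.6% and 13.4% of all measured genes. Their median was -0.52, against 7 of 9 above 0 and a median of 0.08 for the chaperones of the ER lumen, a difference that was not tested. When a gene's measured probe sets were averaged, the heat shock median was -0.29, with 11 of 14 below 0 and 3 at 1.5-fold lower. Hspd1, the mitochondrial chaperonin, had 4054 and 8069, a ratio of -0.99, Hspa4l a ratio of -0.95 and the cytosolic Hsp90 gene Hsp90aa1, named after its values were seen, 10360 and 17452, a ratio of -0.75. The cytosolic Hsp90aa1 and the ER Hsp90b1 were both lower in CD103+ Th1, while the cytosolic Hsp70 gene Hspa8, also named after its values were seen, at -0.04, and the ER Hspa5, at 0.08, were both near 0 on their brightest probe sets. Other Hspa8 probe sets ran down to -0.70. The 5 measured probe sets of Hspa4l ran from -0.95 to -0.02. Hspa4, counted among the 6 at 1.5-fold lower and also named after its values were seen, had 4 from -0.61 to 1.07.

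**Figure D5:**
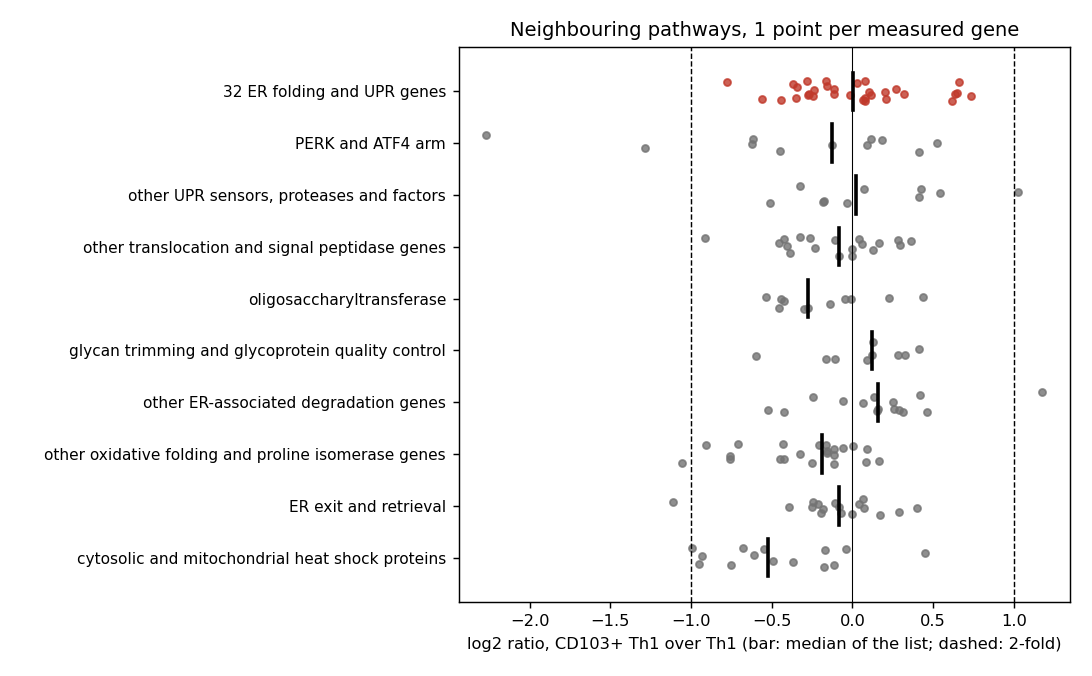
Log2 ratio, CD103+ Th1 over Th1, with 1 point per measured gene, for the 32 ER genes (red) and 9 lists of neighbouring pathways (grey), with the median of a list as a black bar and 2-fold as dashed lines. The 32 genes centre on 0.01 with none past 2-fold, Asns and Eif4ebp1 lie far to the left, and the heat shock genes outside the ER centre on -0.52.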

How the data were processed

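Signal intensities were used as deposited, 1 linear value per probe set and array; the submitters' processing notes name GCOS, with no version, and the scaling target is not given in the sources used here. Both arrays were positive throughout, with medians of 78.0 and 78.8, and were not scaled again. Of 45037 probe sets 34945 had 1 gene symbol, 932 several and 9160 none listed; symbols were updated by gene identifier to the GRCm38.p6 gene table, which 34741 matched. A probe set under the floor (78.5, the median signal of both arrays) on both arrays was not measured; a signal under it was set to it, and the ratio written "at least". Of the members' 80 probe sets 71 were measured. Each gene was represented by the measured probe set brightest on average over both arrays (log2 scale). Genes past 2-fold, and 1.5-fold as an alternative, were counted over all 11194 measured genes. No test was made with 1 array per group, and the small number of arrays sets the precision.

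The members and lists were chosen with earlier results of these data known. All 32 members are named, then the 2 genes with the largest absolute ratio of each other pathway list, with Atf4, Ddit3 and Asns. The genes Ero1a, Hsp90aa1, Hspa8, Hspa4, Dnajb14, Dnajc1, Cd4 and Ighm were chosen after their values were seen. Cell markers are given as counts. Promoter sequences are RefSeq's for GRCm38.p6, and Atf6, Hyou1, Manf, Derl1 and Sec61a1 were not searched. The naming, floor, ratio and counting steps were tested on simulated data, and the promoter search was not. Python 3.11.15, numpy 2.4.6 and pandas 2.3.3 were used.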

Additional observations from a re-analysis of the deposited data

How the results depend on the processing

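No member was 2-fold higher or lower with array medians set equal, quantile normalization, either other floor, a pseudocount, the mean of probe sets, probe sets without suffix letters or only genes at 4 times the floor. At 1.5-fold 5 were higher and 1 lower. With a pseudocount 4 were higher, without Derl3, and 1 lower; with the floor at the 75th percentile, or only genes at 4 times the floor, 4 were higher and 0 lower, since Derl3 and Atf6 had no value. The median was -0.11 over the 27 genes with measured probe sets without suffix letters, where Xbp1, Hyou1, Derl1 and Selk changed sign and Hspa5, Hsp90b1, P4hb, Calr and Derl3 had no value; with the other alternatives it lay between -0.02 and 0.03. At 1.5-fold that alternative left Dnajb9 and Pdia3 higher, with Atf6 and Canx lower, and the mean of probe sets gave Dnajb9, Dnajc3 and Derl3 higher, with Hsp90b1 lower. The cause was not tested. Sec61a1 changed sign with either scaling, and Herpud1 and Sel1l with the mean of probe sets. Ern1 also had no value with the floor at the 75th percentile. No paired analysis was possible because each group has 1 array, and no replicate could be left out.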
